A study of Mus musculus with 4 samples.

Results

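The genes studied here encode 10 enzymes that modify or crosslink collagen. They are the lysyl oxidases Lox, Loxl1, Loxl2, Loxl3 and Loxl4, the lysyl hydroxylases Plod1, Plod2 and Plod3, the prolyl 4-hydroxylase subunit P4ha1 and the transglutaminase Tgm2. Members were taken by symbol from the count table, where each of the 10 symbols stands on 1 row of 55487, and all 10 passed the filter on low counts that kept 22485 genes. The RNA came from the mouse mammary fat pad (MFP), with 2 samples labelled Old at 14 months (aged-MFP) and 2 samples labelled Young at 8 weeks (young-MFP). The labels give the strain as c57b/6j, while the study's methods name female C57BL/6NCrl mice for its mammary fat pad injections, so the substrain of these samples is uncertain. The labels name no treatment, transgene or deletion at either age, and they do not say whether a sample was 1 animal or several. The tissue was lysed whole, so a library mixes the RNA of all its cell types, and a change in the number of cells of a type cannot be told apart from a change in RNA per cell. Libraries held between 68803304 and 98402403 counts, and 3 counts, taken as the floor for counting error alone, correspond to at most 0.0407 CPM. Levels are given as CPM, the usual counts-per-million scale, after TMM scaling, which sets library sizes so that most genes keep the same level.

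Collagen is hydroxylated while its chains are still inside the cell, and it is crosslinked after it has been secreted. Prolyl 4-hydroxylase, whose catalytic subunit P4ha1 encodes, makes the 4-hydroxyproline that keeps the triple helix stable at body temperature. Lysyl hydroxylases convert lysine to hydroxylysine, which anchors sugars and sets the kind of crosslink that later forms: Plod1 acts mainly on lysines of the helix and Plod2 on those of the telopeptides at the chain ends, while Plod3 also carries glycosyltransferase activity. Outside the cell the copper-dependent lysyl oxidases turn lysine and hydroxylysine into aldehydes that join neighbouring molecules, and Tgm2 links glutamine to lysine side chains. In fat these steps form the stiff matrix around adipocytes.

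Lox and Plod2 stood higher in both aged-MFP samples than in both young-MFP samples, at 2.53-fold and 2.04-fold, and Tgm2 lay above by 1.57-fold with almost no gap between the ages. The other 7 enzymes overlapped between the ages, and P4ha1 was at nearly the same level in all 4 samples. With edgeR's quasi-likelihood test and p-values adjusted over all genes tested, 0 of 10 reached an adjusted p under 0.05, where 0% of all genes tested did. The 9 fibrillar collagen genes listed, whose products these enzymes act on, were lower in aged-MFP. Per count of collagen all 10 enzymes were higher in both aged samples, as were 81.6% of all genes tested. With fibroblast markers in place of collagen 4 of 10 were above, against 11.3% of all genes, and 2 below, against 28.8%. With adipocyte markers 2 of 10 were above, against 5.27%, and 4 below, against 47.9%. With endothelial markers 4 of 10 were above, against 10.2%, and 3 were below. The share of all genes below was not determined for endothelial markers. The plot of CPM by sample shows the 10 members together.

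**Figure D1:**
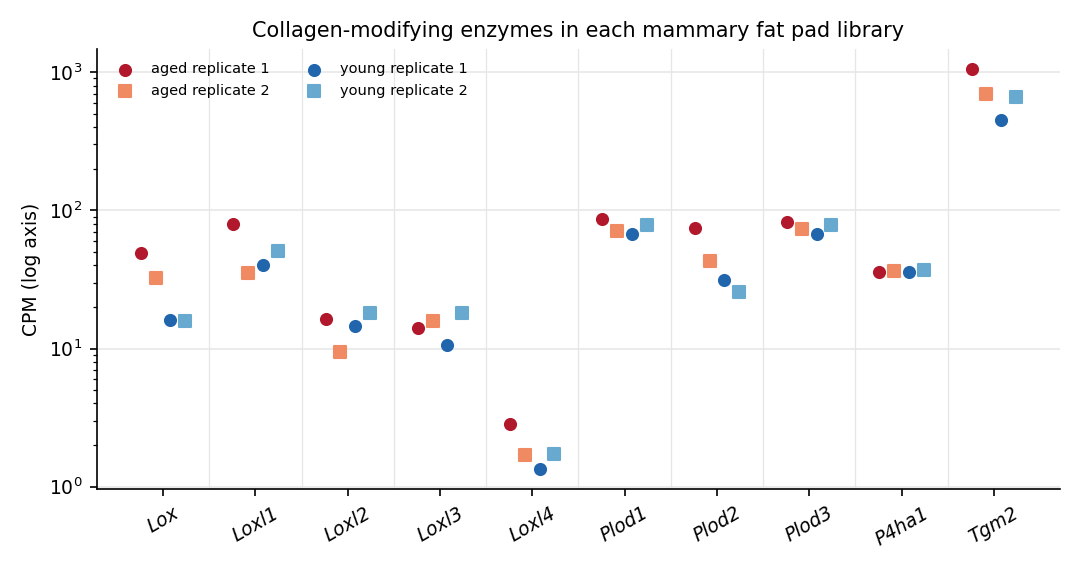
Level of each enzyme in each library, in CPM with TMM scaling on a log axis, with circles for replicate 1 and squares for replicate 2 of aged-MFP (red) and young-MFP (blue). Lox (32.2 and 48.8 against 15.8 and 16.2 CPM) and Plod2 separate the ages, and the points of P4ha1 lie between 35.6 and 37.0 CPM.

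Among the lysyl hydroxylases only the telopeptide enzyme separated the ages. Plod2 (ENSMUSG00000032374, GRCm38 chromosome 9, 92542223 to 92608428, plus strand) was at 74.1 and 42.8 CPM in aged replicates 1 and 2, and at 31.5 and 25.8 CPM in young replicates 1 and 2. Both aged samples exceeded both young samples, with a gap of 0.44 (log2) between the nearest pair and a distance of 0.79 (log2) between the 2 aged samples. The log2 fold change of Plod2 was 1.03 (standard error 0.32), a fold of 2.04 with a 95% interval from 1.11 to 3.76. The unadjusted p was 0.0316 and the adjusted p 0.451 in edgeR's quasi-likelihood test, and DESeq2, the tool named in the study's methods, gave an adjusted p of 0.128. Without aged replicate 1, the highest sample, the log2 fold change of Plod2 was 0.57.

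Plod1 (ENSMUSG00000019055, chromosome 4, 147909753 to 147936767, minus strand) was at 87.1 and 71.4 CPM in aged and at 67.8 and 78.4 CPM in young samples. Plod3 (ENSMUSG00000004846, chromosome 5, 136987019 to 136996648, plus strand) was at 82.9 and 73.3 CPM in aged and at 67.03 and 78.7 CPM in young samples. For both genes young replicate 2 stood above aged replicate 2, so the ages overlapped. The log2 fold changes were 0.12 (standard error 0.17) for Plod1 and 0.10 (standard error 0.15) for Plod3, and with libraries scaled by total counts only they were -0.058 and -0.078. The 95% intervals of the fold ran from 0.787 to 1.49 for Plod1 and from 0.801 to 1.43 for Plod3, which leave out a change as large as the 2.04-fold of Plod2. Whether Plod2 differed from its paralogs in fold change was not tested.

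P4ha1 (ENSMUSG00000019916, chromosome 10, 59323296 to 59373304, plus strand) was the flattest member. It was at 35.6 and 36.5 CPM in aged samples and at 35.8 and 37.0 CPM in young samples, with 2911, 3246, 2933 and 2730 counts. The log2 fold change was -0.01 (standard error 0.14), and the 95% interval of the fold ran from 0.761 to 1.29. Scaling by total counts only moved it to -0.20, with both aged samples then below both young samples. Of the 11 other hydroxylases and partner proteins listed (P4ha2, P4ha3, the shared subunit P4hb, the prolyl 3-hydroxylases and their partners), 5 were higher and 6 lower in aged-MFP (3 and 8 with total-count scaling), with a median log2 fold change of -0.08, against -0.04 over all 22485 genes. By edgeR 0 of 11 reached an adjusted p under 0.05, and without young replicate 2 the list had 7 higher and 4 lower (median 0.14). The largest differences were in P4ha3, another catalytic subunit, at 1.10 and 0.371 CPM in aged against 2.55 and 2.45 CPM in young samples (log2 fold change -1.77, adjusted p = 0.466 from edgeR), and in Tmem38b, an endoplasmic reticulum cation channel, at 31.4 and 47.0 against 17.8 and 17.8 CPM (log2 fold change 1.14, adjusted p = 0.398 from edgeR and 0.0129 from DESeq2).

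Hydroxylases of this kind are known targets of hypoxia-inducible factors, so the start-site regions were read for ACGTG, 1 form of the core of their binding element. RefSeq promoters on GRCm38.p6, 250 bases before to 50 bases after the start site, were at hand for 4 of the 10 members. The motif ACGTG was searched on both strands, and 19.6% of the 32851 promoters of that length hold it. The form GCGTG was not searched, and it stands unmarked in both sequences printed below. Loxl4 and Plod1 have no match to ACGTG in this window, while P4ha1 and Plod3 hold 1 match each. It starts at position -16 on the reverse strand for P4ha1 and at position -54 on the printed strand for Plod3. Position -1 is the base before the start site. Both are shown because they belong to the members with the steadiest levels, P4ha1 at chr10:59323046-59323345 and Plod3 at chr5:136986769-136987068, plus strand, 5′ to 3′, with the match in capitals. A match is a description of the letters and not evidence of binding.
P4ha1: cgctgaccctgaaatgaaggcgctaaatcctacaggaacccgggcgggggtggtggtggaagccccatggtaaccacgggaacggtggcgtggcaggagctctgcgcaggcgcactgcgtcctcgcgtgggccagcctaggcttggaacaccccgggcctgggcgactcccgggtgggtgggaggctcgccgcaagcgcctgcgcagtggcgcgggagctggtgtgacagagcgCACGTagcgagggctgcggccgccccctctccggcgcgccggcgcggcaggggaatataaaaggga
Plod3: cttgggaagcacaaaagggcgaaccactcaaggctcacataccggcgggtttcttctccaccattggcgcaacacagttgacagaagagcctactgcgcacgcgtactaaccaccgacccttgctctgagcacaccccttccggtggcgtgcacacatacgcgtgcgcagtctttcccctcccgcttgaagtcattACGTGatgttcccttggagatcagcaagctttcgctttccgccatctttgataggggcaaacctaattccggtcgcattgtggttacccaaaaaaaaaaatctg

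The 15 hypoxia response genes listed (such as Vegfa, Pgk1 and Bnip3) had a median log2 fold change of 0.36, against -0.04 over all genes, with 11 higher and 4 lower. By edgeR 0 of 15 reached an adjusted p under 0.05, while DESeq2 called 2 of 15 higher. The median was 0.17 with total-count scaling (10 higher, 5 lower) and 0.17 without aged replicate 2 (9 higher, 6 lower). The largest differences were in Epas1, the gene of hypoxia-inducible factor 2 alpha, at 719 and 577 CPM in aged against 341 and 379.6 CPM in young samples (log2 fold change 0.85, adjusted p = 0.406 from edgeR and 0.0213 from DESeq2), and in Bnip3, a mitophagy receptor, at 195 and 108 against 85.1 and 83.6 CPM (log2 fold change 0.84, adjusted p = 0.485 from edgeR). The other gene that DESeq2 called was Egln1, an oxygen-sensing prolyl hydroxylase, at 101 and 103 against 66.4 and 65.5 CPM (log2 fold change 0.63, adjusted p = 0.366 from edgeR and 0.019 from DESeq2). Vegfa, a secreted target of the pathway, overlapped between the ages with a log2 fold change of 0.04.

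Lox differed most among the 10 members. Lox (ENSMUSG00000024529, chromosome 18, 52516067 to 52529867, minus strand) is the founding lysyl oxidase and acts on collagen and elastin. It had 3987 and 2868 counts in aged samples and 1326 and 1165 counts in young samples, or 48.8 and 32.2 CPM against 16.2 and 15.8 CPM. The young samples lay 0.04 apart on the log2 scale and the aged samples 0.60 apart, and the nearest aged and young samples were separated by 0.99. The log2 fold change was 1.34 (standard error 0.26), a fold of 2.53 with a 95% interval from 1.55 to 4.13. Of all genes tested, 10.5% had a log2 fold change at least this far from 0. The unadjusted p was 0.00594 and the adjusted p 0.37 in edgeR's quasi-likelihood test, while DESeq2 gave an adjusted p of 0.00192 and edgeR's likelihood ratio test 0.0588. Alternatives that used all 4 samples gave log2 fold changes of 1.17 to 1.34 for Lox, and leaving out single samples gave 1.00 to 1.61.

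Lox and Plod2 made up the 2 members of 10 with an unadjusted p under 0.05, a threshold that 10.5% of all genes tested met. With no overlap between ages there were 3 members above (Lox, Plod2 and Tgm2) and 0 below, where 23.3% of all genes tested lay above and 22.8% below. A positive log2 fold change was found in 8 of 10 members and in 47.0% of all genes. With total-count scaling it was 5 of 10, since Loxl3, Plod1 and Plod3 changed sign, and without aged replicate 1 it was 5 of 10 as well, with the median of the members going from 0.23 to 0.061. The total-count scaling shifts the median of all genes from -0.04 to -0.22. DESeq2 called 1 of 10 members higher, which was Lox, where it called 3.24% of the genes it adjusted higher. The plot of log2 fold changes sets the enzymes beside the collagens.

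**Figure D2:**
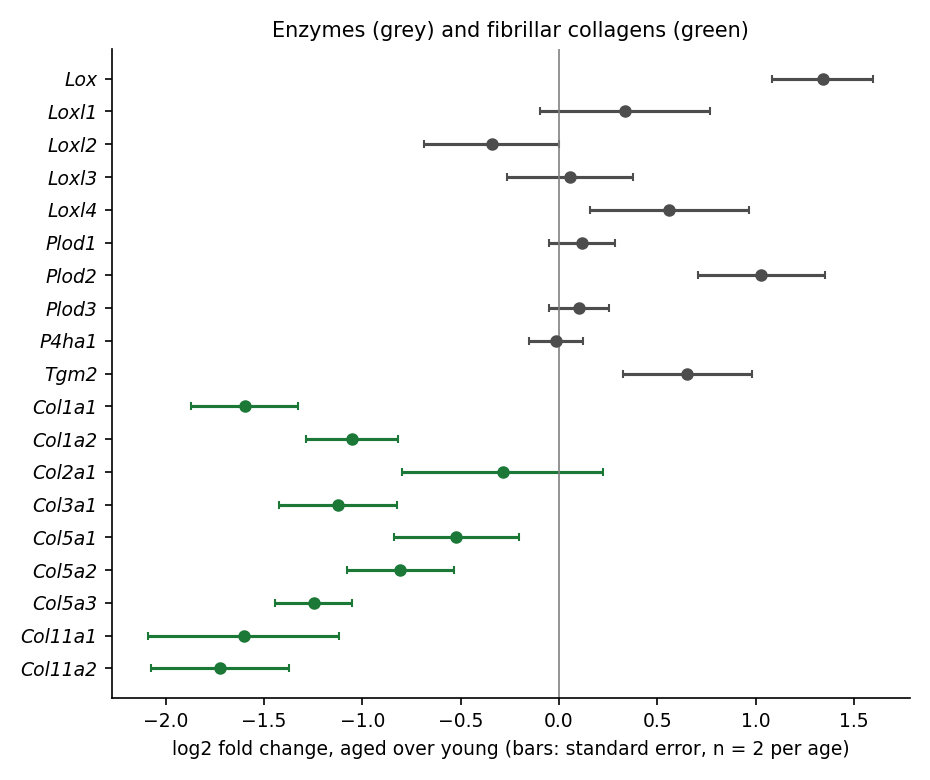
Log2 fold change of aged over young for the 10 enzymes (grey) and 9 fibrillar collagen genes (green), with bars of 1 standard error from edgeR, 2 samples per age. Lox (1.34), Plod2 (1.03) and Tgm2 (0.65) lie furthest right and all 9 collagens lie left of 0, while Loxl3, Plod1 and Plod3 sit near 0 and change side when libraries are scaled by total counts only.

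The other lysyl oxidases did not share the pattern of Lox. Loxl1 (ENSMUSG00000032334, chromosome 9, 58287738 to 58313186, minus strand), which is needed for elastic fibre upkeep, was at 79.0 and 35.4 CPM in aged and at 40.0 and 50.6 CPM in young samples. Aged replicate 1 was the highest and aged replicate 2 the lowest of the 4, so the log2 fold change of 0.34 (standard error 0.43) turned to -0.37 without aged replicate 1. Loxl2 (ENSMUSG00000034205, chromosome 14, 69609068 to 69695834, plus strand), a crosslinker of collagen IV among other substrates, was at 16.5 and 9.40 CPM in aged and at 14.6 and 18.2 CPM in young samples. On the log2 scale edgeR gave -0.34 (standard error 0.34, adjusted p = 0.689), and 0.0063 without aged replicate 2, the lowest sample. Loxl3 (ENSMUSG00000000693, chromosome 6, 83034173 to 83052562, plus strand) was at 14.0 and 15.8 CPM in aged samples, between the young samples at 10.6 and 18.1 CPM. Its log2 fold change of 0.06 (standard error 0.32) became -0.13 with total-count scaling. Loxl4 (ENSMUSG00000025185, chromosome 19, 42593982 to 42612813, minus strand) was the lowest member, with 232 and 150 counts in aged and 110 and 127 counts in young samples. It was at 2.84 and 1.68 CPM against 1.34 and 1.72 CPM, which overlap, and edgeR gave 0.56 on the log2 scale (standard error 0.41, adjusted p = 0.592). The 95% interval of the fold ran from 0.555 to 2.87 for Loxl1 and from 0.683 to 3.19 for Loxl4, so a change of the size seen for Lox was not excluded for Loxl1 or Loxl4.

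Tgm2 (ENSMUSG00000037820, chromosome 2, 158116402 to 158146436, minus strand), the tissue transglutaminase, was the most abundant member in every sample. It had 85848 and 62007 counts in aged and 37132 and 48514 counts in young samples, or 1049.9 and 696 CPM against 453 and 657 CPM. The nearest aged and young samples were 0.08 apart on the log2 scale, while samples of the same age differed by 0.59 and 0.54. On the log2 scale edgeR gave 0.65 (standard error 0.33, adjusted p = 0.532), with a 95% interval of the fold from 0.841 to 2.94. The ages overlapped when libraries were scaled by total counts only (log2 fold change 0.48). Without aged replicate 1 the value was 0.32. Of the 9 other transglutaminase genes listed, 6 could be tested, 3 of them higher and 3 lower with a median of -0.03, and by edgeR 0 of 6 reached an adjusted p under 0.05. Total-count scaling made this 1 higher and 5 lower, as did leaving out aged replicate 2 or young replicate 1, while without young replicate 2 it was 4 higher and 2 lower. The largest differences were in Tgm5 (log2 fold change 1.63, adjusted p = 0.454 from edgeR) and Tgm3 (-1.54, adjusted p = 0.408 from edgeR), epidermal enzymes below 0.6 CPM in every sample.

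To compare levels between genes, counts were divided by the summed length of a gene's exons and scaled to the same total in every library. On this per-length scale Tgm2 was at 730 and 466 in aged and at 305 and 521 in young samples, and young replicate 2 then stood above aged replicate 2. Averaged over the 4 samples, Tgm2 (506) was followed by Plod3 (54.6), Loxl1 (50.9), Plod1 (36.8), P4ha1 (28.7), Plod2 (26.0), Lox (19.0), Loxl3 (10.5), Loxl2 (8.95) and Loxl4 (1.47). Neighbours in this order from Plod3 down to Loxl2 had ranges over the 4 samples that overlapped, while Tgm2 stood clear above and Loxl4 clear below the rest in every sample. With the longest transcript in place of all exons, 6 of 10 members kept their rank, and Plod1 passed Loxl1 and Plod2 passed P4ha1.

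The enzymes' shares of their families also differed between the ages, and a share does not depend on how libraries are scaled. Lox held 24.9% and 29.2% of the per-length level of the 5 lysyl oxidases in aged samples and 16.2% and 12.5% in young samples. The difference of 12.7 percentage points was larger than the spread at either age (27.1% ± 3.04 and 14.4% ± 2.63, SD, n = 2 each). Loxl2 held 7.44% and 7.54% in aged and 12.99% and 12.8% in young samples, a family share that was lower in both aged samples although its CPM overlapped. Loxl1 held the largest share of the family in every sample, from 46.6% to 58.6%, with overlap between the ages. Plod2 held 30.6% and 22.8% of the 3 lysyl hydroxylases in aged and 19.0% and 14.1% in young samples. Since the 3 shares sum to the whole, those of Plod1 and Plod3 together were lower. Each was also lower in both aged samples. Plod1 held 28.6% and 30.4% against 32.6% and 34.3%, and Plod3 held 40.8% and 46.7% against 48.3% and 51.6%. Of the sum of Plod1 and Plod3 alone, Plod1 held 41.2% and 39.4% in aged and 40.3% and 39.9% in young samples, which overlap. The share of Loxl4 separated as well, at 1.64% and 1.73% in aged and 1.53% and 1.55% in young samples. In an exact two-sided permutation test the separated shares of Lox, Loxl2, Loxl4, Plod1, Plod2 and Plod3 each had p = 0.333. That is the smallest that 2 samples against 2 allow. How often shares separate in other gene families was not tested. The values were nearly the same with the longest transcript, at a difference of 12.6 points for Lox and 10.05 points for Plod2.

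**Figure D3:**
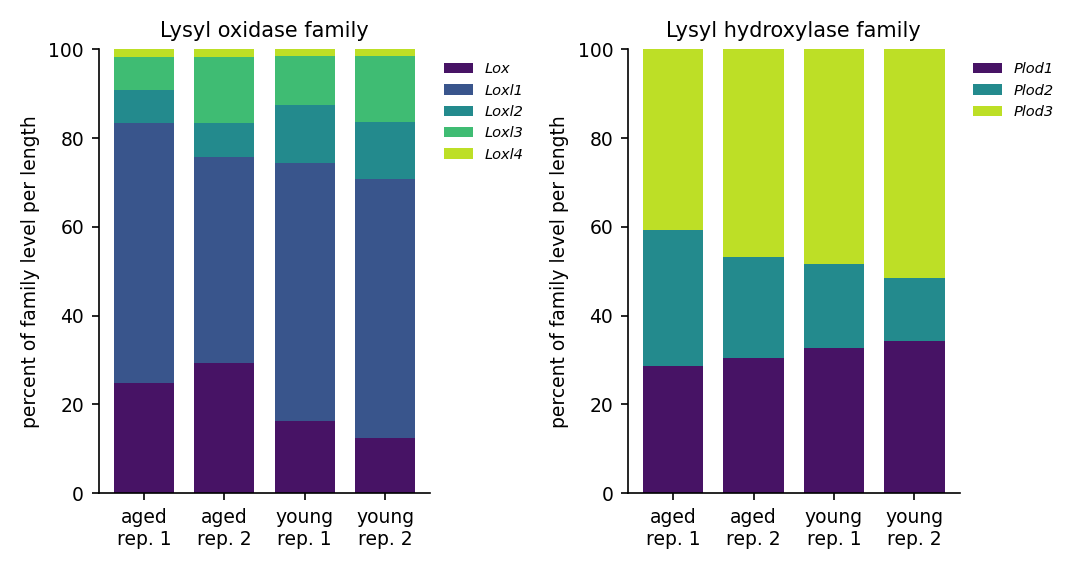
Share of each gene in the summed per-length level of the 5 lysyl oxidases (left) and the 3 lysyl hydroxylases (right), in percent, 1 bar per library. The segment of Lox (24.9% and 29.2% against 16.2% and 12.5%) and that of Plod2 (30.6% and 22.8% against 19.0% and 14.1%) are taller in both aged samples.

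The collagen substrates were lower in aged samples, where several of the enzymes were higher. Col1a1 was at 503 and 349.7 CPM in aged against 1213 and 1368 CPM in young samples (log2 fold change -1.60, adjusted p = 0.36 from edgeR). Col1a2 was at 468 and 351 against 795.5 and 902 CPM (-1.05, adjusted p = 0.4 from edgeR), and Col3a1 at 1009 and 696 against 1702 and 2012 CPM (-1.12, adjusted p = 0.417 from edgeR). Both aged samples lay below both young samples for each of these, the chains of collagen I and III. All 9 fibrillar collagen genes listed had a negative log2 fold change, with a median of -1.12 against -0.04 over all genes. In 8 of 9 both aged samples lay below both young samples, as in 22.8% of all genes tested. The other, Col2a1, had 11 to 18 counts per library. Without aged replicate 2 or young replicate 2, 8 of 9 were lower, with medians of -0.88 and -0.95. With all 4 samples the largest differences were in the minor chains Col11a2 (-1.72) and Col11a1 (-1.60). By edgeR's quasi-likelihood test 0 of 9 reached an adjusted p under 0.05, and 7 of 9 had an unadjusted p under 0.05, as did 10.5% of all genes. DESeq2 called 6 of 9 lower, where it called 156 of the 21984 genes it adjusted lower. Elastin (Eln), the other substrate of Lox, overlapped between the ages, at 103 and 68.1 CPM in aged against 81.9 and 123 CPM in young samples (-0.26, adjusted p = 0.731 from edgeR).

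Counts of each enzyme were then set against the summed counts of Col1a1, Col1a2 and Col3a1 in the same library. Per 1000 collagen counts, Lox had 24.6 and 23.1 counts in aged and 4.36 and 3.69 in young samples. The 2 aged samples, which differ in the CPM of Lox, nearly coincide on this scale. The mean log2 ratio was 2.57 higher in aged samples. Plod2 had 37.4 and 30.6 counts per 1000 in aged and 8.49 and 6.02 in young samples, a difference of 2.24 on the log2 scale, and Tgm2 had 530.1 and 499 against 122 and 154, a difference of 1.91. P4ha1, flat in CPM, had 18.0 and 26.1 against 9.64 and 8.64, a difference of 1.25. For all 10 members the aged samples lay above the young samples, with differences from 0.87 for Loxl2 to 2.57 for Lox and a median of 1.44, and each has the smallest exact two-sided permutation p of 0.333. The lower collagen counts enter all ratios alike, and 81.6% of all genes tested were above in the same way, so the count of 10 is not particular to these enzymes. With Col3a1 alone as denominator all 10 were above (median 1.32), as were 78.2% of all genes.

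**Figure D4:**
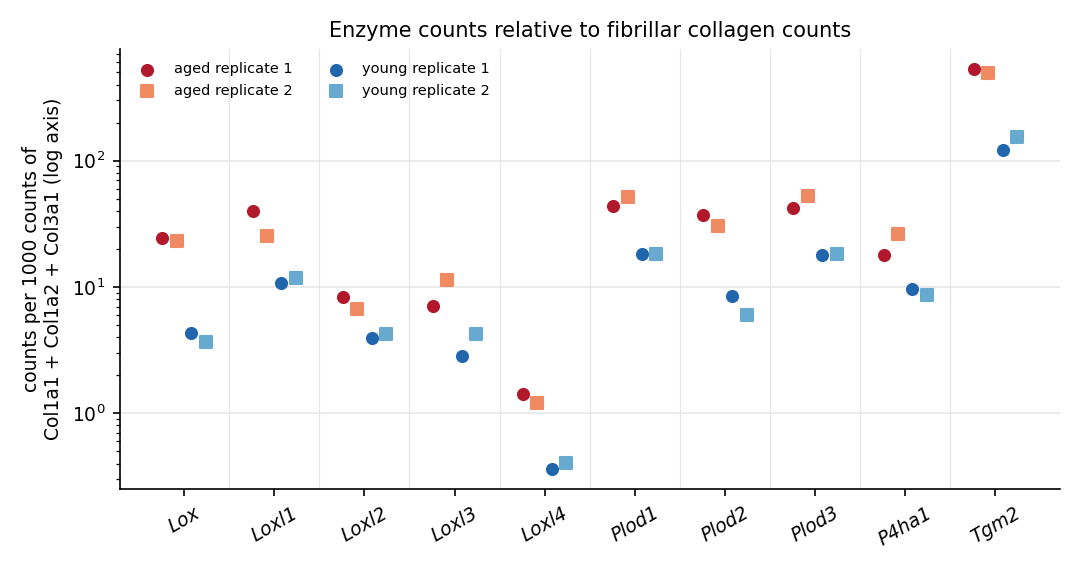
Counts of each enzyme per 1000 summed counts of Col1a1, Col1a2 and Col3a1 in the same library, on a log axis, 1 point per library. Both aged-MFP points (red) lie above both young-MFP points (blue) for each of the 10 enzymes, with the widest separation for Lox (a difference of 2.57 on the log2 scale), and 81.6% of all genes tested lie above in the same way.

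The result differs when cell markers take the place of collagen. Against the median of 8 fibroblast markers, 4 of 10 members (Lox, Loxl4, Plod2 and Tgm2) were above in both aged samples, and 2 (Loxl2 and Plod1) were below, where 11.3% of all genes tested were above and 28.8% below. The difference for Lox was then 1.05 on the log2 scale and that for Plod2 0.73, while P4ha1 overlapped at -0.27. Against the summed adipocyte markers, a denominator chosen after seeing the data, Lox had 4.62 and 4.62 counts per 1000 in aged and 2.64 and 2.65 in young samples. Plod2 had 7.01 and 6.13 against 5.15 and 4.32, and Tgm2 overlapped at 99.4 and 99.8 against 74.1 and 110 counts per 1000. On this scale 2 of 10 members were above in both aged samples, 4 (Loxl2, Plod1, Plod3 and P4ha1) were below and 4 overlapped, with a median of -0.33, where 5.27% of all genes tested were above and 47.9% below. The last of the 5 denominators tried, also chosen after seeing the data, was the summed endothelial markers. On it 4 of 10 members were above and 3 below, where 10.2% of all genes were above. The share of all genes below was not determined on this scale, so the 3 below have no background. Lox and Plod2 were the 2 members above in both aged samples with all 5 denominators. The share of all genes above with all 5 was not determined, so this count has no background.

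Markers of other cell types differed between the ages as well. With TMM scaling all 8 adipocyte markers were detected and lay above in both aged samples. Summed levels were 6978 to 10564 CPM in aged against 5966 to 6115 CPM in young samples. The nearest aged and young samples were almost level for Plin1 (1019 and 1007 CPM) and Cidec (541 and 540 CPM). The median log2 fold change of 0.58 became 0.41 with total-count scaling and 0.21 without aged replicate 1, with 8 of 8 still higher. Aged replicate 1 was highest for these markers as for Lox, Plod2 and Tgm2. All 10 skeletal muscle markers lay above in both aged samples, with sums of 38786 and 61491 CPM in aged replicates 1 and 2 against 10003 and 13958 CPM in young samples, and here aged replicate 2 was the higher. The 8 fibroblast markers were 5 higher and 3 lower (4 and 4 with total-count scaling), with overlapping sums of 688 to 932 CPM and 811 to 842 CPM. The endothelial list had 4 of 7 higher (sums of 637 to 856 and 571 to 657 CPM), the macrophage list 7 of 8 (353 to 446 and 252 to 584 CPM), smooth muscle and pericyte 6 of 7 (4 of 7 with total-count scaling, 1095 to 1238 and 769 to 1239 CPM) and mammary epithelium 7 of 8 (3 of 8 with total-count scaling, 2008 to 2341 and 1241 to 2879 CPM). Without young replicate 1 the direction turned for smooth muscle and pericyte (2 of 7 higher, median -0.30) and for mammary epithelium (2 of 8 higher, median -0.31). Proliferation markers were lower for 8 of 8, with overlapping sums of 12.8 to 35.2 CPM in aged and 32.6 to 104 CPM in young samples, the highest in young replicate 1. Without that sample 8 of 8 stayed lower, and their median log2 fold change went from -1.57 to -0.61. Of 7 skin keratinocyte markers, Flg and Krt2 were at 0 counts in every library and the sums reached at most 2.53 CPM. The part of these markers in the levels of the enzymes was not tested.

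The samples of an age also differed from each other across the enzymes. Aged replicate 1 exceeded aged replicate 2 in 8 of 10 members, all but Loxl3 and P4ha1, and young replicate 2 exceeded young replicate 1 in 8 of 10, all but Lox and Plod2. Over all genes tested the corresponding shares were 49.3% and 50.5%. Young replicate 1 stood apart from the other 3 libraries on the first principal component, which held 60.0% of the variance. Without it Lox had a log2 fold change of 1.36, Plod2 1.18 and Tgm2 0.41.

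Genes that act before or after these enzymes showed no common direction. Among 11 chaperones and glycosyltransferases of collagen, 5 were higher and 6 lower (3 and 8 with total-count scaling) with a median of -0.02, the largest differences being in the transcription factor Creb3l1 (-0.48) and the prolyl isomerase Fkbp9 (0.45). Of 8 procollagen proteases and enhancers 5 were higher and 3 lower with a median of 0.25, and without aged replicate 1 this became 3 higher and 5 lower, and without young replicate 2 it became 7 higher and 1 lower (median 0.54). Pcolce2, which enhances removal of the C-propeptide, was at 17.2 and 11.5 CPM in aged against 4.16 and 6.82 CPM in young samples (log2 fold change 1.39, adjusted p = 0.418 from edgeR and 0.0329 from DESeq2). Adamts14, an N-propeptidase, was at 11.2 and 8.56 against 16.8 and 31.2 CPM (-1.28, adjusted p = 0.432 from edgeR). The 7 genes of copper, iron and ascorbate supply, the cofactors of these enzymes, were 4 higher and 3 lower with a median of 0.11, led by Slc23a1 (0.58) and Slc40a1 (0.52), and this median turned to -0.07 with total-count scaling and to -0.08 without young replicate 1. In edgeR 0 genes of these 3 lists reached an adjusted p under 0.05.

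Partners in the fibril split in both directions. Of 11 elastic fibre and fibril genes 6 were higher and 5 lower (median 0.10, and -0.09 with total-count scaling), and by edgeR 0 of 11 reached an adjusted p under 0.05. Without young replicate 1 the median was -0.12 and without young replicate 2 it was 0.63. Fibronectin (Fn1), a scaffold on which collagen assembles, was at 110 and 97.6 CPM in aged against 297 and 592 CPM in young samples (log2 fold change -2.10, adjusted p = 0.367 from edgeR). Decorin (Dcn), a proteoglycan that coats fibrils, was at 272 and 248 against 89.0 and 118 CPM (log2 fold change 1.33, adjusted p = 0.36 from edgeR). Neither pair of ages overlapped, and DESeq2 called Fn1 lower and Dcn higher. Of 10 genes of the TGF-beta signal, a known inducer of Lox, 7 were higher and 3 lower (median 0.39), and by edgeR 0 of 10 reached an adjusted p under 0.05. This median was 0.21 with total-count scaling (6 higher, 4 lower) and 1.05 without young replicate 2. Ccn2, a matricellular target, was at 30.0 and 53.7 against 8.72 and 18.3 CPM (1.63, adjusted p = 0.445 from edgeR and 0.0491 from DESeq2).

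Counting could mix some members with neighbours. The library kit keeps the strand, but whether the counting used it is not given in the sources used here. On the other strand Loxl3 shares 535 bp of exon with Htra2, which had 2115 to 2899 counts per library, Plod3 shares 529 bp with Znhit1 (1560 to 2066 counts) and Tgm2 shares 370 bp with Rprd1b (2750 to 3706 counts). Rprd1b had at most 0.0756 counts for each count of Tgm2, whereas Htra2 had up to 3.34 for each count of Loxl3. Plod2 overlaps Gm38391 by 346 bp (133 to 200 counts), and Lox shares 30 bp with an antisense gene.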

How the data were processed

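The labels describe libraries of total RNA, depleted of ribosomal RNA, made with a directional kit. The authors deposited raw whole-number counts per Ensembl gene, neither normalized nor pooled. The submitters' processing notes name featureCounts, R 3.6.1 and the builds hg38 and GRCm38. The aligner, annotation release and strand setting are not given in the sources used here.

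Counts were filtered with filterByExpr, scaled by TMM and tested with edgeR 4.0.16 (glmQLFit, glmQLFTest, age as the only term) in R 4.3.3, with Benjamini-Hochberg adjustment over 22485 genes. DESeq2 1.42.0, named by the study, was the main alternative. Standard errors are the log2 fold change divided by the square root of F, and 95% intervals use the fit's degrees of freedom. With 2 samples per age an exact permutation p cannot fall below 0.333. Replicates are separate samples by label. The p-values of edgeR and DESeq2 rest on the spread between these samples, estimated with information shared across genes. Whether this spread is one between single animals is not known. Total counts per library limit precision as given in the text. Coordinates and lengths come from GENCODE M21 (GRCm38), and promoters from RefSeq. The fitting code was tested on simulated counts.

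Members and gene lists were chosen with earlier results of these data known. Named beyond the members are the 2 largest log2 fold changes of each list that is not a marker list, plus Col1a1, Col1a2, Col3a1 and Eln. A gene that this rule names is not reported here. Vegfa was named after its values were seen, as was the family share as a measure. Egln1, outside the rule of the 2 largest, was named because DESeq2 called it. Of a list of 3 blood and 3 myelin genes, DESeq2 called the 3 blood genes higher (Hbb-bs 1.23, Hba-a1 1.39 and Alas2 1.34, log2 fold change), edgeR called 0, and the myelin genes lay between -0.05 and 0.21. The alternatives were other scalings, filters, tests, the replicate block and leaving out each sample.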

Additional observations from a re-analysis of the deposited data

How the results depend on the processing

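Of 170 values of the members' log2 fold changes over 17 alternatives, 159 kept their sign. Those that did not were, with total-count scaling, Loxl3 (-0.13), Plod1 (-0.058) and Plod3 (-0.078), and with samples left out, over ranges of -0.37 to 0.80 for Loxl1, -0.82 to 0.0063 for Loxl2, -0.28 to 0.50 for Loxl3, -0.044 to 0.25 for Plod1, -0.012 to 0.23 for Plod3 and -0.039 to 0.021 for P4ha1. Lox, Loxl4, Plod2 and Tgm2 kept theirs throughout. The number of genes called, 0, became 869 with DESeq2 and 490 with edgeR's likelihood ratio test, and members called became 1 with DESeq2. Members with an unadjusted p under 0.05 fell from 2 to 1 with total-count scaling and ranged from 1 to 2 with samples left out, where Plod2 missed the threshold without aged replicate 1 or young replicate 2. Members with no overlap, 3, were 5, 8, 6 and 8 without aged replicate 1, aged replicate 2, young replicate 1 and young replicate 2. Over all genes tested they were 15168 of 24014, 15992 of 24055, 17854 of 23357 and 20164 of 23981, in the same order. With 3 samples an overlap is less frequent. The members whose mean log2 ratio was higher in aged samples, with or without overlap, fell from 10 to 4 with fibroblast, adipocyte or endothelial markers. Both aged samples lay above both young samples in 4, 2 and 4 members with these denominators. The share of all genes with a higher mean ratio was not determined. Per length, 6 of 10 kept their rank with the longest transcript. Without a sample an age rests on 1 sample assumed to vary like the other age. Same-numbered samples deviated oppositely (correlation -0.46 across genes). With the replicate block 0 genes and 0 members were called, and Lox was at 1.31 and Plod2 at 0.98, and with the crossed pairing, added after seeing the data, 0 genes and 0 members were called. The causes of these shifts were not tested. Loxl4, with 110 to 232 counts per library, is the member most limited by depth.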
